A study of Mus musculus with 24 samples.

Results

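The genes described here are 10 genes of iron recycling and of hepcidin regulation, chosen by symbol out of 48820 gene entries that were counted in 24 mouse RNA-seq libraries: Hamp, Hamp2, Slc40a1, Hmox1, Tfr2, Tfrc, Fth1, Slc11a1, Tmprss6 and Hfe. All 10 were found in each of the 4 count tables. The strain is C57BL/6 in the labels and C57BL/6J in the study's methods, and each group had 3 biological replicates. In Bmp9/10-HSC-KO mice (HSC-KO below), floxed Gdf2, which encodes GDF2 (BMP9), and floxed Bmp10 were both deleted by Cre driven from Lrat, a gene of hepatic stellate cells (HSCs), so that the loss is of these ligands in Lrat-expressing cells and not in the macrophages, ECs or hepatocytes measured. HSC-KO mice and their BMP9/10 controls gave sorted liver macrophages (CD45+Ly6C-F4/80+CD64+) and sorted hepatic endothelial cells (ECs, CD45-CD31+) at 8 to 10 weeks of age, and whole livers at 12 weeks. In Smad4FF cKO mice (Smad4 cKO below), floxed Smad4, the shared partner of receptor-activated SMADs, was deleted by Vav1-driven Cre in hematopoietic cells, and liver macrophages were compared with those of Smad4FF mice that carry the floxed gene, also at 8 to 10 weeks. By the mouse codes in the sample descriptions, 3 mice gave both a macrophage library and an EC library (1 control and 2 HSC-KO), so the macrophage and EC comparisons are not independent of each other.

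Most iron that enters plasma is recycled from red cells by macrophages. Liver macrophages take up senescent red cells and haemoglobin, haem oxygenase 1 (Hmox1) opens the haem ring and frees its iron, and the iron is either stored in ferritin (heavy chain Fth1) or sent back to plasma through ferroportin (Slc40a1), the iron exporter of the cell membrane. Hepcidin, the peptide hormone encoded by Hamp in hepatocytes, binds ferroportin and causes its degradation, and hepatocytes adjust Hamp transcription to BMP2 and BMP6 made by liver ECs, to transferrin-bound iron sensed with HFE and transferrin receptor 2 (Tfr2), and to inflammatory cytokines acting through STAT3. Matriptase-2 (Tmprss6) is a hepatocyte protease that restrains this BMP signal, transferrin receptor 1 (Tfrc) is the general iron uptake receptor, and NRAMP1 (Slc11a1) moves divalent metals out of the phagosomes of macrophages.

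The 2 hepcidin genes lie side by side on the minus strand of chromosome 7 (GRCm38, GENCODE vM21). Hamp spans chr7:30942368-30944032 and Hamp2 spans chr7:30922372-30924681, with 17686 bases between them. The promoter sequences from RefSeq (GRCm38.p6) are shown because the liver libraries below separate the 2 genes in one animal, and because BMP and STAT3 signals are read at this DNA. Capitals mark GGCGCC, the core of the BMP-responsive element, or the bases of Hamp2 aligned with it, and then TTCNNNGAA, the palindrome bound by STAT factors. The Hamp window is chr7:30944033-30944279 and the Hamp2 window is chr7:30924182-30924431, both given 5′ to 3′ on the minus strand and both free of annotated exons. The Hamp2 window is upstream of the RefSeq start (30924181) but lies inside the GENCODE span of Hamp2, which begins further upstream.
Hamp: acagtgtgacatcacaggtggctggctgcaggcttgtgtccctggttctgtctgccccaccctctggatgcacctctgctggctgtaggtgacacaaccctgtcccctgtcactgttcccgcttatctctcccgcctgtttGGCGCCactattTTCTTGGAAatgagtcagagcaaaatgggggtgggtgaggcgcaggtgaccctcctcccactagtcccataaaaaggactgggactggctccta
Hamp2: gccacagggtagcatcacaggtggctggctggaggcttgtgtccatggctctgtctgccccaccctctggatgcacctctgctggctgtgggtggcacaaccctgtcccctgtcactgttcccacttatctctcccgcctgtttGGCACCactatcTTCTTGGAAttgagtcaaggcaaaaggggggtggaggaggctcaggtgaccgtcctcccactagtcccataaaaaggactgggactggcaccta
The windows were identical at 227 of 247 aligned bases (91.9%). GGCGCC stands 109 to 104 bases upstream of the Hamp start site, and the aligned Hamp2 bases carry the substitution G4A (counted from 1 at the first base of GGCGCC), so these letters are not in the Hamp2 window. TTCTTGGAA is in both, 97 to 89 bases upstream in Hamp and 94 to 86 in Hamp2. Of 27018 RefSeq promoters of mouse genes read over 250 bases and on both strands, 9.54% held GGCGCC, 7.18% held TTCNNNGAA and 0.396% held both. These matches describe letters and do not show binding.

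Another set of sequences belongs to the iron-responsive element (IRE), the hairpin through which iron regulatory proteins act on translation when it lies in a 5′ UTR and on mRNA decay when it lies in a 3′ UTR. The sites are shown because RNA-seq reads the level of these mRNAs and not their translation. A search of annotated transcripts for the hairpin (C, 5 bases, the loop CAGTGN, and 5 bases that pair with the first 5, G-T pairs allowed) found it in 294 of 21901 protein-coding genes (1.34%) and in 3 of the 10 genes. Capitals mark the loop, and each site is written 5′ to 3′ on the strand of its gene. The Fth1 site is in the 5′ UTR at chr19:9982738-9982754 (plus strand), the Slc40a1 site is in the 5′ UTR at chr1:45925471-45925487 (minus strand), and the 4 Tfrc sites are in the 3′ UTR on the plus strand at chr16:32631225-32631241, chr16:32631604-32631620, chr16:32631669-32631685 and chr16:32631716-32631732.
Fth1: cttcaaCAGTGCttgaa
Slc40a1: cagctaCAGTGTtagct
Tfrc site 1: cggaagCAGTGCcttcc
Tfrc site 2: cgggagCAGTGTcttcc
Tfrc site 3: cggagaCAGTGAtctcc
Tfrc site 4: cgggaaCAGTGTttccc

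Each library held between 60911527 and 110879155 counted reads, and values are given in CPM, a gene's share of all counts of a library whose size was scaled by TMM. A gene was called a differentially expressed gene (DEG) at a Benjamini-Hochberg adjusted p under 0.05 over all genes tested, from edgeR's quasi-likelihood test, with a log2 fold change above 1 in size; fold changes carry a standard error (SE) or a 95% interval. The deleted genes went with the labels: Gdf2 was at 18.4, 9.38 and 22.5 CPM in control livers and at 3.85, 2.12 and 2.63 CPM in HSC-KO livers, Bmp10 at 1.99 to 3.28 and at 0.0938 to 0.262 CPM, and Smad4 at 35.3 to 42.8 CPM in Smad4FF and 12.6 to 17.2 CPM in Smad4 cKO macrophages. The call for Gdf2 in livers (adjusted p = 0.013, edgeR) was lost without control replicate 1 or control replicate 3 (log2 fold change -2.47 and -2.26). The 6 general macrophage markers (Adgre1, Csf1r, Fcgr1, Mertk, Lyz2, Cd68) summed to 15890 to 17540 CPM in control and to 13600 to 15270 CPM in HSC-KO macrophages, and to 18090 to 21830 and 9355 to 13010 CPM in Smad4FF and Smad4 cKO macrophages, whereas 7 markers of mature Kupffer cells summed to 29770 to 31330 CPM against 203 to 431 CPM and to 25260 to 31990 CPM against 800 to 906 CPM. The sorted cells were thus macrophages by their general markers, with little RNA of the Kupffer cell markers in both mutants. Xist, the RNA made from the inactive X chromosome of females, was high in some libraries and near 0 in others within the macrophage, EC and liver sets, and the sex of the mice is not given in the sources used here.

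**Figure D1:**
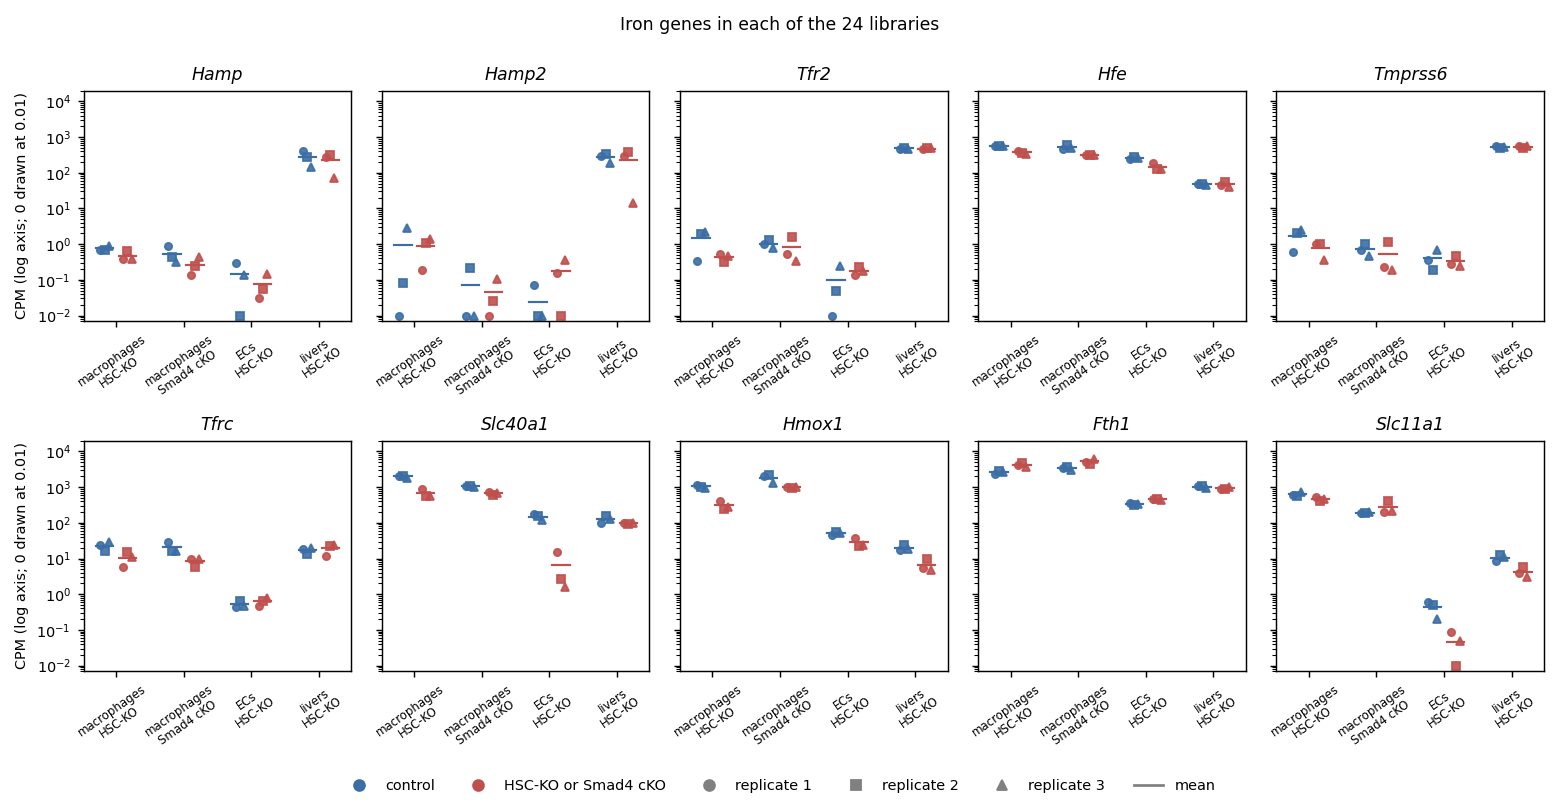
CPM of the 10 genes in each of the 24 libraries (logarithmic axis, 0 drawn at 0.01), with 1 panel per gene, blue for control and red for knockout, symbols for replicates and bars for group means. Hamp, Hamp2, Tfr2 and Tmprss6 are high in livers and near the floor in sorted cells, while Slc40a1 separates knockout from control ECs and Hmox1 separates knockout from control in macrophages and livers.

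Hepcidin RNA was abundant in the livers and varied more between animals than between genotypes. Per kilobase of exon, Hamp was the highest of the 10 genes in control livers (678 ± 322 CPM per kb, SD, n = 3), ahead of Hamp2 (477 ± 142), Fth1 (297 ± 19.0), Tmprss6 (154 ± 9.33) and Tfr2 (111 ± 5.02). This order depends on the lengths, which count every annotated exon base of a gene (410 for Hamp, 583 for Hamp2, 3469 for Fth1). The Hamp2 transcript compared below has 420 bases. In CPM, without division by length, Fth1 was the highest of the 10 genes. The ranges of mean ± SD of Hamp and Hamp2 overlapped. In HSC-KO livers the means had the same order, but Hamp (547 ± 323) and Hamp2 (393 ± 327) had wide SDs, and in HSC-KO replicate 3 both lay below Fth1. Slc40a1 (14.2 ± 2.87), Hfe (13.2 ± 0.407) and Hmox1 (11.3 ± 2.05) followed without separating beyond their SDs.

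Hamp was at 409.6, 278 and 146 CPM in control livers and at 279, 321 and 73.3 CPM in HSC-KO livers. The groups overlapped, and the lowest value belonged to HSC-KO replicate 3. The log2 fold change was -0.31 (95% interval -1.59 to 0.98, adjusted p = 0.90, edgeR's quasi-likelihood test). Hamp2 was at 304, 345 and 185 CPM in control and at 296, 378 and 13.9 CPM in HSC-KO livers, with a log2 fold change of -0.28 (95% interval -2.35 to 1.80, adjusted p = 0.95, and -1.05 with adjusted p = 0.70 when the replicate number was a block). The other 5 libraries ran from 185 to 378 CPM, and HSC-KO replicate 3 lay below all of them. Without this library the log2 fold changes were 0.11 for Hamp and 0.28 for Hamp2, and Hamp also turned sign without control replicate 1 (0.09).

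The same animal had a different mix of the 2 hepcidin transcripts. Of the reads counted to either gene, Hamp2 made up 42.6%, 55.3% and 56.0% in control livers and 51.5%, 54.1% and 16% in HSC-KO livers. HSC-KO replicate 3 was also the only liver library with almost no Xist (0.167 CPM, against 303 to 709 CPM in the other 5), and the part of this difference in the Hamp2 value was not tested. The GENCODE transcripts of Hamp and Hamp2 were identical at 388 of 410 aligned bases (94.6%), the treatment of reads that map to both genes is not given, and an exon of Gm44662 on the opposite strand overlaps Hamp2, so the division of reads between the 2 genes is uncertain. Across the 6 livers the genes with the most similar pattern to Hamp, of 8429 genes ranked by Pearson's r of log2 CPM, were Acvr1b (0.988), Scand1 (0.982) and Smarcb1 (0.978), and Hamp2 stood at rank 64 (0.913). These are descriptions over 6 libraries that share the low value of 1 animal.

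The EC ligands that drive hepcidin transcription were lower by a wide margin in both preparations that contain ECs. In sorted ECs Bmp2 was at 369, 481 and 539.8 CPM in control and at 32.6, 6.04 and 4.43 CPM in HSC-KO mice, and it fell by 5.01 on the log2 scale (SE 0.81, adjusted p = 0.0049). Leaving out 1 library gave -6.47 to -4.58, the lowest without HSC-KO replicate 1. Bmp6 was at 61.8, 80.1 and 86.6 CPM in control and at 5.47, 5.47 and 6.92 CPM in HSC-KO ECs, and fell by 3.68 (SE 0.19, adjusted p = 6.1e-05). No HSC-KO library reached the lowest control library for either ligand.

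In whole livers Bmp2 was at 19.0, 27.2 and 31.3 CPM in control and at 0.482, 1.09 and 1.25 CPM in HSC-KO mice (log2 fold change -4.77, SE 0.38, adjusted p = 0.0013, edgeR), a 27.3-fold difference with no overlap. Bmp6 was at 3.92, 5.11 and 6.44 CPM and at 1.27, 1.75 and 1.39 CPM (log2 fold change -1.81, SE 0.27, adjusted p = 0.015). The parts of fewer ECs and of less RNA per EC in these whole-liver values were not tested. The 9 endothelial markers summed to 480 to 596 CPM in control and to 350 to 408 CPM in HSC-KO livers, and as a share of this sum Bmp2 was 3.95 to 5.25% in control and 0.137 to 0.358% in HSC-KO livers, and Bmp6 was 0.817 to 1.08% and 0.361 to 0.429%. The Bmp6 call in livers was lost without control replicate 2, control replicate 3 or HSC-KO replicate 1 (log2 fold change -1.80, -1.60 and -1.71, adjusted p 0.066 to 0.079).

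**Figure D2:**
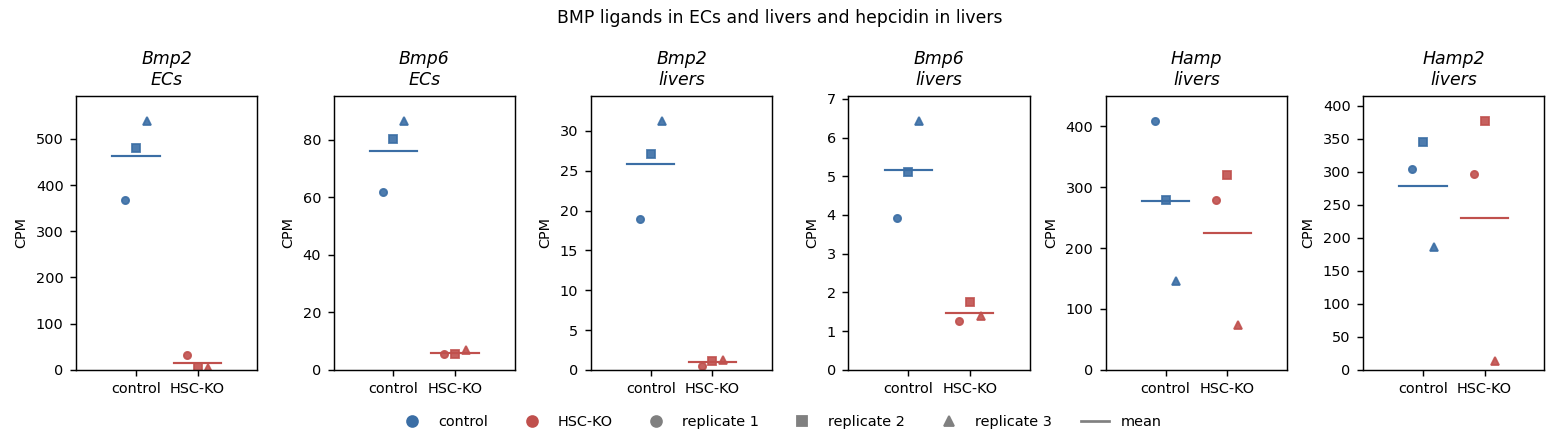
CPM (linear axes) of Bmp2 and Bmp6 in ECs and livers and of Hamp and Hamp2 in livers, with 1 point per library, blue for control, red for HSC-KO, and bars for group means. Both ligands are lower in every HSC-KO library than in every control library, while for Hamp and Hamp2 the groups overlap and 1 HSC-KO animal, replicate 3, is low for both genes.

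The genes of hepatocyte proteins that set the response to these ligands were at closely similar CPM in both liver groups. Tfr2 was at 463, 504.2 and 471 CPM in control and at 449, 504.2 and 482 CPM in HSC-KO livers, a log2 fold change of 0.00 with a 95% interval of -0.28 to 0.28. Tmprss6 was at 545, 483 and 521 CPM and at 549, 486 and 555 CPM (0.04, -0.26 to 0.33). Hfe was at 48.6, 47.3 and 45.7 CPM and at 45.8, 54.6 and 40.7 CPM (0.00, -0.31 to 0.31). For these 3 genes the groups overlapped, and every interval lay between -0.31 and 0.33 on the log2 scale. Hfe is not a gene of hepatocytes alone in these data. Its control mean was 158 CPM per kb in sorted macrophages, 72.2 in sorted ECs and 13.2 in livers. The part of those cells in its liver value was not tested. The 10 hepatocyte markers summed to 118000 to 143800 CPM in control and to 146400 to 196500 CPM in HSC-KO livers, without overlap, with 1 of the 10 called lower and none called higher. In proportion to that sum the control levels of Tfr2 and Tmprss6 would come to 546 to 733 CPM and 587.5 to 789 CPM in HSC-KO livers, above each measured value, and those of Hamp to 316 to 425 CPM. The part of this shift in the values of the 4 hepatocyte genes was not tested.

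Of the 29 genes of the BMP-SMAD and inflammatory arm of hepcidin control, 27 were tested in livers, and 3 were lower, none was higher and 24 were not called, where 2.48% of the 17118 genes tested were DEGs. The list median was 0.07 on the log2 scale against -0.01 for all genes tested. The 3 were Bmp2, Bmp6 and Smad6, an inhibitory SMAD that BMP signals induce, which was at 13.7, 9.96 and 7.76 CPM in control and at 1.94, 3.63 and 1.53 CPM in HSC-KO livers (log2 fold change -2.14, SE 0.37, adjusted p = 0.026, edgeR). Every HSC-KO value of Smad6 lay below every control value. Its call was lost without any 1 control or without HSC-KO replicate 1 (log2 fold change -2.30 to -1.89, adjusted p 0.061 to 0.12). Smad6 also fell in sorted ECs (-3.01) and sorted macrophages (-4.17), and the part of these cells in its liver value was not tested. The BMP targets Id1 and Id3 were not called in livers.

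In whole livers 1 of the 10 genes was a DEG, Hmox1, against the 2.48% of all genes tested, and the values of 3 of the 10 did not overlap between groups, against 19.7% of all genes. Hmox1 was at 17, 23.8 and 18.6 CPM in control and at 5.52, 9.56 and 4.75 CPM in HSC-KO livers. All HSC-KO values lay below all control values, with a log2 fold change of -1.58 (SE 0.28, adjusted p = 0.030, edgeR's quasi-likelihood test), or 2.99-fold. The call rested on all 6 libraries except HSC-KO replicate 2, since leaving out any other 1 gave log2 fold changes of -1.67, -1.42, -1.61 (controls 1 to 3), -1.47 and -1.39 (HSC-KO 1 and 3) with adjusted p values of 0.069, 0.12, 0.099, 0.13 and 0.05.

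Slc11a1, which is transcribed in macrophages and neutrophils, had a similar pattern in livers. It was at 8.53, 12.7 and 10.8 CPM in control and at 3.98, 5.90 and 3.06 CPM in HSC-KO livers, without overlap (log2 fold change -1.30, SE 0.28, adjusted p = 0.057), and it passed the test without HSC-KO replicate 2 (-1.60, adjusted p = 0.039). General macrophage markers moved in the same direction in these livers, since the sum of the 6 genes came to 179 to 283 CPM in control and to 68.7 to 107 CPM in HSC-KO, 3 of the 6 were called lower and none was at 0.

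As a share of that macrophage sum, Hmox1 was at 9.50%, 8.42% and 8.0% in control and 5.75%, 8.97% and 6.92% in HSC-KO livers, and Slc11a1 was at 4.77%, 4.47% and 4.64% and at 4.15%, 5.54% and 4.46%. The groups overlapped for both genes on this scale. In sorted macrophages the share of Hmox1 was 6.61%, 5.94% and 5.91% in control and 2.73%, 1.67% and 2.04% in HSC-KO, without overlap, and the share of Slc11a1 was 3.46%, 3.25% and 4.49% and 3.37%, 2.77% and 3.32%, with overlap. In livers Slc40a1 was at 56.7%, 54.0% and 56.0% of the macrophage sum in control and at 102%, 87.7% and 145% in HSC-KO, higher without overlap. In sorted macrophages it was at 12%, 11.7% and 11.7% in control and at 5.82%, 3.97% and 4.05% in HSC-KO, lower without overlap. The sorted control ECs also held Slc40a1 RNA, and the part of other cells in the liver values was not tested.

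**Figure D3:**
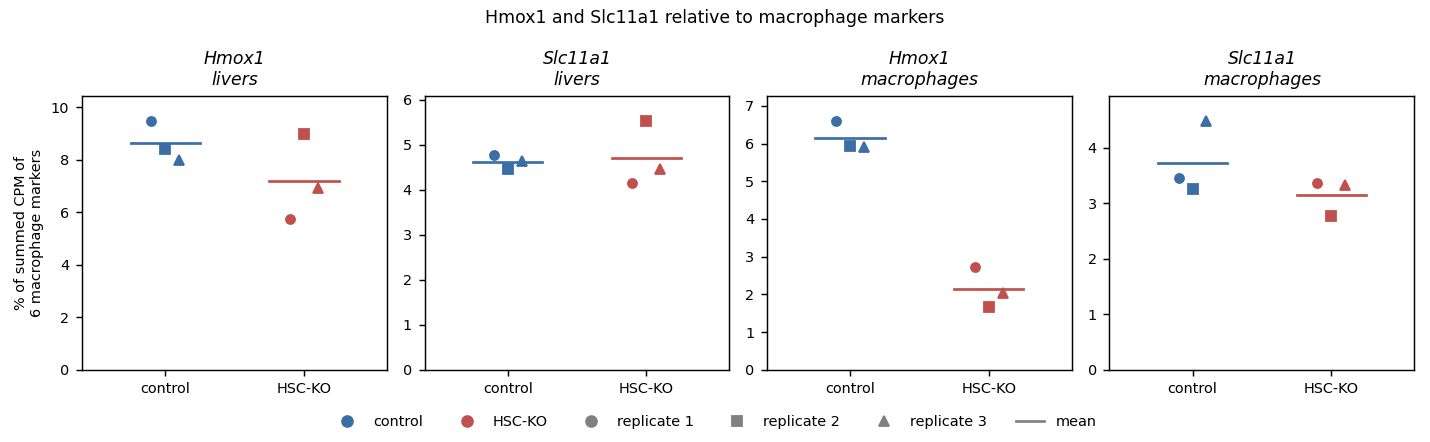
Hmox1 and Slc11a1 as percent of the summed CPM of 6 general macrophage markers, in livers and in sorted macrophages of the HSC-KO experiment, with 1 point per library (blue control, red HSC-KO) and bars for group means. In livers the groups overlap for both genes, and in sorted macrophages Hmox1 goes from 5.91 to 6.61% in controls to 1.67 to 2.73% in HSC-KO.

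The other genes of iron export, storage and uptake did not pass the test in livers. Slc40a1 was at 101, 153 and 130.1 CPM in control and at 97.9, 93.5 and 99.5 CPM in HSC-KO livers, where all HSC-KO values lay just below the lowest control value (log2 fold change -0.40, 95% interval -0.78 to -0.03, adjusted p = 0.34). Fth1 was at 955 to 1075 CPM and at 879 to 1031 CPM (-0.14, -0.44 to 0.16), and Tfrc at 13.5 to 20.3 CPM and at 11.8 to 23.5 CPM (0.13, -0.52 to 0.78). Both overlapped between groups.

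In liver macrophages from HSC-KO mice Slc40a1 and Hmox1, 2 of the 10 genes, fell 2.97-fold and 3.34-fold, where 11.7% of the 16337 genes tested were DEGs and 5.34% were lower DEGs. Slc40a1 was at 2099, 2047 and 1862 CPM in control and at 888, 583 and 551 CPM in HSC-KO macrophages. The groups were far apart, and the log2 fold change was -1.57 (SE 0.21, adjusted p = 0.0019, edgeR's quasi-likelihood test). Hmox1 was at 1159, 1041 and 939 CPM in control and at 417, 246 and 277 CPM in HSC-KO macrophages. Its groups were also far apart, with a log2 fold change of -1.74 (SE 0.22, adjusted p = 0.0016). Markers of other cells moved in the same libraries. Of 5 monocyte markers 3 were called higher and 1 lower (summed 91.6 to 186 CPM in control and 43.9 to 111 CPM in HSC-KO), of 9 erythroid markers 1 higher and 5 lower (63.7 to 81 and 71.4 to 106 CPM), of 5 B and T cell markers 2 higher (11.8 to 22 and 34.6 to 112 CPM) and of 9 endothelial markers 4 lower (563 to 820.5 and 75.6 to 157 CPM). The part of these cells in the fall of Slc40a1 and Hmox1 was not tested.

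The storage gene moved the other way by a smaller amount. Fth1 was at 2280.3, 2916 and 2680.5 CPM in control and at 4172, 4836 and 3658 CPM in HSC-KO macrophages, 1.61-fold higher without overlap (log2 fold change 0.69, SE 0.17, adjusted p = 0.027), which is below the fold required of a DEG. Leaving out 1 library gave Fth1 adjusted p values of 0.033 to 0.077. The light chain gene Ftl1 had the opposite sign, at a mean of 15153 CPM in control and of 9658 CPM in HSC-KO (log2 fold change -0.65, adjusted p = 0.024), also below that fold. Hfe, whose product partners the transferrin receptors, was at 571, 548 and 569.5 CPM in control and at 410.4, 363 and 336 CPM in HSC-KO macrophages (log2 fold change -0.61, SE 0.12, adjusted p = 0.012), and it did not pass without HSC-KO replicate 3 (-0.54, adjusted p = 0.052).

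At any fold, 4 of the 10 genes passed the adjusted p (19.2% of all genes did), and 7 of the 10 did not overlap between groups (40.3% of all genes did not). The list median was -0.89 on the log2 scale against 0.04 for all genes. Tfrc was low and did not pass, at 23.9, 16.7 and 28.8 CPM in control and at 5.75, 14.8 and 11.3 CPM in HSC-KO (log2 fold change -1.12, 95% interval -1.94 to -0.30, adjusted p = 0.063). The 2 groups did not overlap, HSC-KO replicate 2 was closest to the controls, and without it the gene passed (-1.44, adjusted p = 0.047). It also passed with DESeq2 (-1.13, adjusted p = 0.0045) and with Xist as a factor (-1.48, adjusted p = 0.011). Slc11a1 was at 606, 569.8 and 713 CPM and at 514, 407 and 452 CPM (-0.46, SE 0.15, adjusted p = 0.064), again without overlap.

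Per kilobase of exon the order of the abundant genes changed between the groups. In control macrophages it ran Fth1 (757 ± 92.6 CPM per kb, SD, n = 3), Hmox1 (598 ± 62.8), Slc40a1 (222.5 ± 13.8), Slc11a1 (170.0 ± 20.1), Hfe (158 ± 3.58) and Tfrc (3.74 ± 0.980), where Slc11a1 and Hfe did not differ beyond their SDs. In HSC-KO macrophages it ran Fth1 (1217 ± 170), Hmox1 (179 ± 51.9), Slc11a1 (124 ± 14.5), Hfe (104 ± 10.5), Slc40a1 (74.9 ± 20.7) and Tfrc (1.72 ± 0.738), with ferroportin RNA at rank 3 in control and rank 5 in HSC-KO macrophages by the means. In the HSC-KO order, from Hmox1 to Slc40a1, the ranges of mean ± SD of neighbouring genes overlapped. The ranks depend on the annotated exon bases of each gene (9000 for Slc40a1 and 1751 for Hmox1).

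The hepatocyte genes were barely present in sorted macrophages. Hamp was at 0.387 to 0.909 CPM over the 6 libraries of the HSC-KO experiment, Hamp2 at 0 to 2.80, Tfr2 at 0.315 to 2.13 and Tmprss6 at 0.351 to 2.43 CPM. The 10 hepatocyte markers in these libraries summed to 285.5 to 1024 CPM, and a share of liver RNA of that size would carry 0.617 to 2.21 CPM of Hamp, 1.07 to 3.82 CPM of Tfr2 and 1.15 to 4.11 CPM of Tmprss6, which was more than was seen in all 6 libraries for Tfr2 and Tmprss6 and in 5 of 6 for Hamp. Hamp2 was above its value on this scale (0.617 to 2.21 CPM) in 3 of 6. None of the 4 was called with all libraries in, Tfr2 was called without control replicate 1, and values of this size are not read as macrophage expression.

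Around these members, 3 iron transport genes were higher and 2 lower of 16 tested (median 0.12), and 1 haem gene was higher and 4 lower of 23 tested (median -0.47), where 11.7% of all genes were DEGs. The 3 higher transport genes were Cp and the metal carriers Slc39a14 (log2 fold change 1.29) and Slc25a37 (1.06). Without control replicate 2 or 3 or HSC-KO replicate 1 or 2 both carriers lost the call (adjusted p 0.051 to 0.097), which left Cp of the 3, and Slc39a14 lost it without either of the other 2 libraries as well. Cp, the ferroxidase ceruloplasmin that loads exported iron onto transferrin, rose from a mean of 16.8 to 143 CPM (log2 fold change 3.09), whereas Ncoa4, the receptor that carries ferritin to lysosomes, fell from 138 to 57.3 CPM (-1.27). On the haem side Cd163, the haemoglobin-haptoglobin receptor, fell from 425 to 125 CPM (-1.77), and Slc48a1, the haem transporter of the phagolysosome, from 456 to 204 CPM (-1.16). The Kupffer cell receptors Marco (-6.70) and Vsig4 (-7.22) were the other 2 that fell in the haem list, and the scavenger receptor Stab1 rose (3.89). Without HSC-KO replicate 3 Marco was at -8.10 and Vsig4 at -8.22.

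Among 20 genes for iron and haem sensing, 3 fell and none rose (median -0.05), against the 11.7% of all genes. They were Nr1h3, the oxysterol receptor LXR alpha (842 to 43.2 CPM in the means, log2 fold change -4.29), Epas1, the hypoxia factor HIF-2 alpha (-1.84), and Txnrd1, a thioredoxin reductase and NRF2 target (-1.64). The Epas1 call was lost without control replicate 2 (-1.20) or 3 (-1.96) or HSC-KO replicate 1 (-1.76) or 2 (-1.67), with adjusted p values of 0.058 to 0.11, and without HSC-KO replicate 3 Nr1h3 was at -5.05. Of the 25 BMP-SMAD genes tested, 8 fell and 1 rose (median -0.50), again against 11.7%, led by the BMP targets Id3 (1035 to 3.45 CPM in the means, -8.23) and Id1 (-7.56), with the inhibitory SMADs Smad6 (-4.17) and Smad7 (-1.77) and the receptor gene Bmpr1a (-2.02). The lowest values on leaving out 1 library were -9.08 for Id3 (without HSC-KO replicate 3), -8.38 for Id1 (replicate 1) and -4.79 for Smad6 (replicate 2), and Id1 was at -6.97 without replicate 2.

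**Figure D4:**
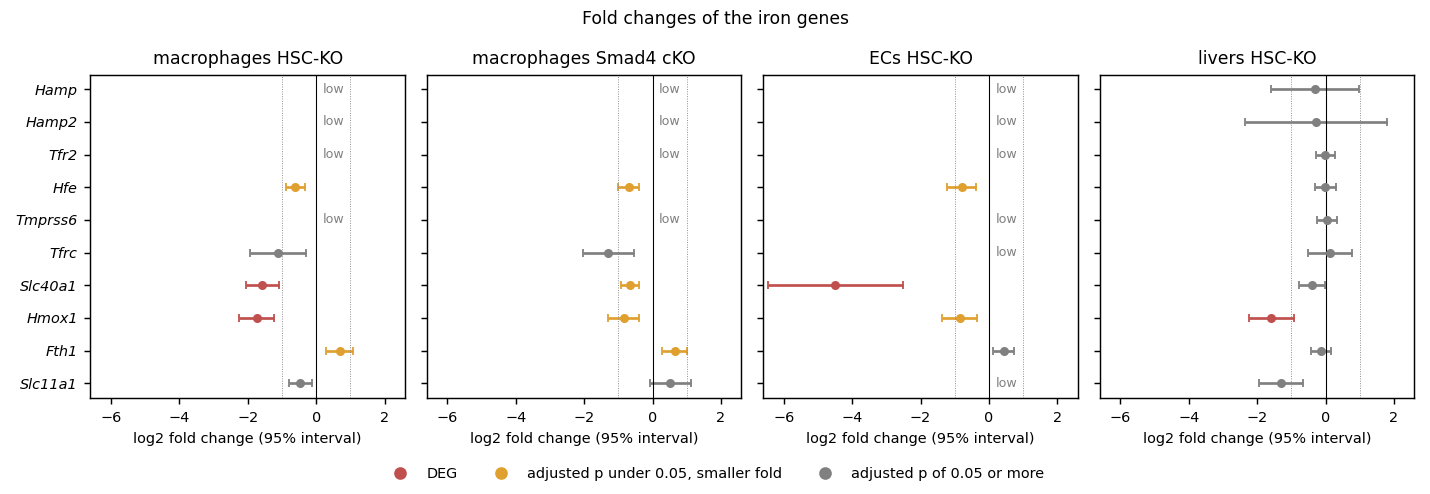
Log2 fold changes (knockout against control) of the 10 genes with 95% intervals in the 4 comparisons, red for DEGs, orange for an adjusted p under 0.05 with a smaller fold, grey for the rest and the word low for genes with a mean log2 CPM under 1. Slc40a1 and Hmox1 lie left of 0 in both macrophage comparisons and in ECs, Fth1 lies right of 0 in these 3, and Hmox1 is the only red point in livers.

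In Smad4 cKO macrophages Slc40a1, Hmox1 and Hfe were lower and Fth1 was higher, each at less than 2-fold. General macrophage markers were lower as well, without overlap (the sums given above), and 2 of the 6 were called lower. As a share of that sum, Slc40a1 was at 5.46%, 5.07% and 5.70% in Smad4FF and at 6.39%, 6.61% and 5.22% in Smad4 cKO macrophages. Hmox1 was at 10.5%, 9.77% and 7.16% and at 8.81%, 10.5% and 8.01%, and Hfe at 2.40 to 2.77% and 2.43 to 3.43%. On this scale the groups overlapped for all 3, whereas Fth1 was at 16.6 to 18.0% and at 43.1 to 49.2%, without overlap. Of 5 proliferation markers 3 were called higher (52.1 to 84.4 CPM in Smad4FF and 116 to 210 CPM in Smad4 cKO). Of 5 monocyte markers 1 was called lower (133 to 167 and 10.3 to 27.3 CPM). Of 9 endothelial markers 1 was called lower (889 to 2526 and 1749 to 2200 CPM). Of 9 erythroid and of 4 cholangiocyte markers 1 each was called higher. The part of these cells in the changes was not tested. None of the 9 iron genes tested was a DEG (5.43% of the 17517 genes tested were), 4 passed the adjusted p in edgeR at any fold (7.74% of all genes), and 5 did not overlap between groups (29.4% of all genes). At an unadjusted p under 0.05 there were 5 (21.4% of all genes), and DESeq2 called 1, Tfrc. Slc40a1 was at 1055, 1106 and 1031 CPM in Smad4FF and at 729, 619 and 679 CPM in Smad4 cKO macrophages, without overlap (log2 fold change -0.66, SE 0.11, 1.58-fold, adjusted p = 0.013, and 0.055 without Smad4FF replicate 3). Hmox1 was at 2028, 2132 and 1295 CPM and at 1005, 979 and 1042 CPM (-0.85, SE 0.19, 1.80-fold, adjusted p = 0.039). The Smad4FF replicate 3 was the low control for Hmox1, and without it the gene was a DEG (-1.06, adjusted p = 0.011). Leaving out any other 1 library gave Hmox1 adjusted p values of 0.087 to 0.13, and library size alone gave 0.067.

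Fth1 was at 3469, 3639 and 3001 CPM in Smad4FF and at 4915, 4598 and 6343 CPM in Smad4 cKO macrophages (log2 fold change 0.65, SE 0.16, adjusted p = 0.049, and 0.047 to 0.20 leaving out 1 library). Hfe was at 464, 606 and 491 CPM and at 320.1, 321 and 316 CPM (-0.70, SE 0.13, adjusted p = 0.019), with 3 closely grouped knockout values below all controls. It did not pass without Smad4FF replicate 3 (0.064), cKO replicate 1 (0.081) or cKO replicate 3 (0.056). Tfrc was at 29.7, 15.8 and 16.2 CPM and at 9.84, 5.78 and 9.65 CPM (-1.29, 95% interval -2.03 to -0.55, adjusted p = 0.051). This was the largest fold of the 5 genes that did not overlap, and it passed the test when the replicate number was a block (-1.27, adjusted p = 0.040). Under that block the adjusted p values of Slc40a1 (0.079), Hmox1 (0.11), Fth1 (0.17) and Hfe (0.074) did not pass.

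Slc11a1 was at 185, 185 and 205 CPM in Smad4FF and at 203, 399 and 222 CPM in Smad4 cKO macrophages, where 1 knockout library was high and the groups overlapped (log2 fold change 0.52, SE 0.25, adjusted p = 0.30). Hamp was at or under 0.886 CPM in all 6 libraries, and Hamp2, which was not tested, had 20 reads in 1 control library, 3 and 9 in the cKO libraries and 0 in the other 3. Hepatocyte markers summed to 167 to 566.5 CPM there.

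The wider lists had 4 iron transport genes higher and 1 lower of 18 tested, 1 haem gene higher and 2 lower of 24, and 9 BMP-SMAD genes lower and none higher of 27, with medians of 0.31, -0.11 and -0.11, where 5.43% of all genes were DEGs. Of the 4 transport genes Slc25a37 (log2 fold change 1.32) and Slc39a14 (1.09) both lost the call without Smad4FF replicate 1 or 3 or cKO replicate 2 or 3 (adjusted p 0.051 to 0.13), which left Cp and Trf. Slc39a14 also lost it without Smad4FF replicate 2 or cKO replicate 1. Marco (-1.48) lost it without Smad4FF replicate 2 or 3 or cKO replicate 1 or 3 (adjusted p 0.059 to 0.082), which left Vsig4 of the 2 lower haem genes. The 9 BMP-SMAD genes include the deleted Smad4 itself (-1.39), and the others were Id1 (-2.93), Id2 (-1.64), Id3 (-2.44), Smad7 (-1.46), Bmpr1a (-1.20), Il1b (-2.59), Il6 (-3.28) and Smad9, which had 0 reads in the 3 cKO libraries. Il1b lost the call without cKO replicate 1 (-2.39, adjusted p = 0.052, edgeR). Cp rose from a mean of 13.6 to 69.1 CPM (log2 fold change 2.34), and Ncoa4 fell from 68.7 to 24.6 CPM (-1.48), each against its own controls. Trf, which encodes transferrin, rose from 1187 to 3772 CPM (1.67). Stab1 rose (2.37) and Vsig4 fell (-3.12), as did Nr1h3 (-3.40), the only gene of the 20 for iron and haem sensing to be called.

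The 2 macrophage experiments have separate controls, so their fold changes could be set against each other in an interaction test over 12 libraries. None of the 10 genes differed as a DEG, where 2.68% of 18263 genes did, and 3 had an unadjusted p under 0.05 in edgeR, where 16.3% of all genes had. DESeq2 called none, with Slc40a1 past its adjusted p (0.0097) at a difference of -0.92, under the size required. The difference, HSC-KO minus Smad4 cKO, was -0.87 for Slc40a1 (95% interval -1.39 to -0.35, adjusted p = 0.082), -0.84 for Hmox1 (SE 0.31, adjusted p = 0.19) and -0.93 for Slc11a1 (SE 0.31, adjusted p = 0.15), all on the log2 scale. These 3 intervals do not include 0, although none passed the adjustment, and without HSC-KO replicate 1 the Slc40a1 difference passed it (-1.12, adjusted p = 0.0098). Without Smad4 cKO replicate 2, the high library, the Slc11a1 difference was -0.56 (adjusted p = 0.17). For Fth1 (0.08, -0.43 to 0.60), Hfe (0.15, -0.23 to 0.53) and Tfrc (0.21, -0.91 to 1.33) the intervals of the difference included 0.

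Over the 12 macrophage libraries, the genes with the pattern most like that of Slc40a1, of 8215 ranked, were Plod1 (Pearson's r of log2 CPM 0.978), Lipa (0.954) and Orai2 (0.952). For Hmox1 they were Ninj1 (0.976), Gpx3 (0.970) and Mgmt (0.969). The libraries come from 2 experiments with different levels of both genes, so these values describe experiment and genotype together.

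Ferroportin RNA fell in hepatic ECs as well, by a wide margin. Slc40a1 was at 175, 153 and 122 CPM in control and at 15.6, 2.68 and 1.57 CPM in HSC-KO ECs, where the groups were far apart and HSC-KO replicate 1 was the highest of its group. It fell by 4.50 on the log2 scale (SE 0.85, 22.6-fold, 95% interval -6.48 to -2.52, adjusted p = 0.0092, edgeR's quasi-likelihood test). Without HSC-KO replicate 1 the log2 fold change was -6.15 (adjusted p = 5.8e-05). It was the only DEG of the 8 genes tested, where 13.7% of the 16053 genes tested were DEGs and 6.01% were lower DEGs.

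Macrophage RNA in the EC libraries was measured through its markers. Kupffer cell markers summed to 22.7 to 25.4 CPM in control ECs, and RNA with the profile of the sorted control macrophages in that proportion would carry 1.48 to 1.65 CPM of Slc40a1. By the 6 general macrophage markers, which summed to 220 to 325 CPM, it would carry 26 to 38.3 CPM, beside the 122 to 175 CPM measured. In HSC-KO ECs the general markers and the same control profile give 7.67 to 12.6 CPM, beside 15.6, 2.68 and 1.57 CPM measured. For Slc11a1 the general markers give 8.17 to 12.1 CPM in control ECs and the Kupffer cell markers 0.466 to 0.52 CPM, beside 0.204 to 0.61 CPM measured. In HSC-KO ECs, Clec4f, Vsig4, Timd4 and Marco were at 0 reads in all 3 libraries.

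Hmox1 was at 45.6, 56.3 and 51.7 CPM in control and at 37.9, 23 and 23.8 CPM in HSC-KO ECs (log2 fold change -0.86, SE 0.22, 1.81-fold, adjusted p = 0.029). Hfe was at 244, 277 and 252 CPM and at 189, 127 and 128 CPM (-0.80, SE 0.18, adjusted p = 0.020). Neither overlapped between groups, and for both HSC-KO replicate 1 lay nearest to the controls. By the same control macrophage profile, the general macrophage markers would bring 13.6 to 20 CPM of Hmox1 in control and 4.01 to 6.58 CPM in HSC-KO ECs. The Kupffer cell markers would bring under 1 CPM. HSC-KO macrophages held less Hmox1 than this profile, and the part of macrophage RNA in the difference was not tested. Without HSC-KO replicate 1 both Hmox1 and Hfe were DEGs, at -1.13 (adjusted p = 0.0034) and -1.02 (adjusted p = 0.0028). Leaving out any other 1 library gave adjusted p values of 0.055 to 0.10 for Hmox1 and 0.05 to 0.08 for Hfe, and library size alone gave 0.079 and 0.067.

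Fth1 was at 353, 317 and 342 CPM in control and at 453, 478 and 430.4 CPM in HSC-KO ECs, 1.34-fold higher without overlap (log2 fold change 0.43, SE 0.13, adjusted p = 0.059). Slc11a1 had 50, 31 and 15 reads in control and 8, 0 and 4 in HSC-KO libraries, all under 0.7 CPM, and Tfrc was at 0.452 to 0.783 CPM over all 6. Tfr2, Tmprss6, Hamp and Hamp2 were also under 0.7 CPM, and the last 2 were not tested. At any fold 3 of the 8 passed the adjusted p (20.1% of all genes did), 5 did not overlap (40.4% of all genes did not), and the median was -0.56 against 0.00 for all genes.

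Per kilobase of exon, Fth1 led in control ECs (97.3 ± 5.27 CPM per kb, SD, n = 3), followed by Hfe (72.2 ± 4.83), Hmox1 (29.3 ± 3.05) and Slc40a1 (16.7 ± 2.93), with no overlap of neighbours within 1 SD. In HSC-KO ECs this order was the same, with Slc40a1 at 0.734 ± 0.865 CPM per kb. Hfe was at rank 2 in control ECs, at rank 5 in BMP9/10 control macrophages and at rank 3 in Smad4FF macrophages. The order of genes within a group depends on their annotated exon lengths here too.

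Of 19 iron transport genes tested 4 fell and 2 rose (median -0.23), and of 24 haem genes 5 fell and 1 rose (median -0.56), against DEG shares of 13.7% in all and 6.01% lower over all genes. Of the 2 that rose, Slc39a14 (log2 fold change 1.37) lost the call without control replicate 1 or 2 or HSC-KO replicate 2 or 3 (adjusted p 0.051 to 0.07). Slc39a8, a zinc and iron importer, fell from a mean of 192 to 4.48 CPM (log2 fold change -5.42), and Slc46a1, a carrier of folate and haem, from 29.2 to 0.754 CPM (-5.24), and without HSC-KO replicate 1 these were -6.36 and -6.59. The mitochondrial iron importers Slc25a37 (-1.76) and Slc25a28 (-1.44) and the biliverdin reductase Blvrb (-1.37) fell, whereas Abcg2, an exporter of haem and porphyrins among other substrates, rose (2.24).

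Stab1 fell in ECs (log2 fold change -2.67), the opposite sign to its change in macrophages (difference, macrophages minus ECs, 6.57, SE 0.47, adjusted p = 1.2e-05). Of the 25 BMP-SMAD genes tested in ECs 10 fell and 4 rose (median -0.55), where 13.7% of all genes were DEGs, with Bmp2 and Bmp6 above and Smad6 (-3.01), Bmper (-2.32), Id2 (-2.28) and Smad7 (-1.80) among those that fell. Endothelial markers summed to 18290 to 18690 CPM in control and to 10100 to 11870 CPM in HSC-KO ECs, and 2 of these 9 were called lower. Of 5 monocyte markers 2 were called higher and none lower (11.1 to 13.6 CPM in control and 84.6 to 116.5 CPM in HSC-KO). Called lower were 5 of 7 Kupffer cell, 3 of 6 macrophage, 2 of 10 hepatocyte, 1 of 9 erythroid and 1 of 7 stellate markers. The part of these cells in the EC values was not tested.

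Set against the macrophages of the same experiment, the test called a different EC change for 1 of the 10 genes, Slc11a1 (12.3% of 18325 genes were called). Its EC fold rests on 0 to 50 reads per library, at 0.204 to 0.61 CPM in control ECs where the Kupffer cell markers alone would bring 0.466 to 0.52 CPM, and it is not read as an EC response. The difference, macrophages minus ECs, was 2.71 (SE 0.70, adjusted p = 0.024), and its call was lost without macrophage HSC-KO replicate 1 (2.62), EC control replicate 1 (2.37), EC control replicate 2 (2.62) or EC HSC-KO replicate 3 (2.73), with adjusted p values of 0.050 to 0.063. For Slc40a1 the difference was 2.94 (95% interval 0.91 to 4.97, adjusted p = 0.054), and it passed without EC HSC-KO replicate 1 (4.59, adjusted p = 6.1e-05). Hmox1 (-0.87, adjusted p = 0.11) passed without macrophage HSC-KO replicate 1 (-1.14, adjusted p = 0.044), and Tfrc (-1.40, adjusted p = 0.082) without macrophage HSC-KO replicate 2 (-1.715, adjusted p = 0.045), where Tfrc was under 1 CPM in ECs. Fth1 (0.27, -0.22 to 0.76) and Hfe (0.20, -0.32 to 0.73) had intervals that included 0. The fit did not model the 3 mice that gave both libraries.

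Of the haem list in livers, 24 genes were tested, 4 were lower and none was higher (median -0.21), and of 21 iron transport genes and 19 regulators none was called, where 2.48% of all genes were DEGs. The 4 were Marco (log2 fold change -6.15), Vsig4 (-7.05), Stab1 (-1.21, adjusted p = 0.024) and Blvrb (-1.16, adjusted p = 0.022). The 7 Kupffer cell markers, which include Marco and Vsig4, summed to 242.5 to 426 CPM in control and to 2.24 to 5.75 CPM in HSC-KO livers, and their part in this count was not tested. The Vsig4 call held in each leave-one-out fit, at -7.65 without HSC-KO replicate 3. Marco had 37 reads in HSC-KO replicate 2 and 0 in the other 2, so no fold is given without that library. The others were each lost without control replicate 2, control replicate 3 or HSC-KO replicate 1. Leaving out those libraries gave log2 fold changes of -5.93, -6.15 and -5.59 for Marco, -1.19, -1.05 and -1.14 for Stab1 and -1.15, -1.18 and -1.04 for Blvrb, with adjusted p values of 0.089 to 0.12. Marco and Blvrb were also lost without control replicate 1 (-6.33 and -1.10), Blvrb without HSC-KO replicate 2 (-1.06) and Stab1 without HSC-KO replicate 3 (-1.12).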

How the data were processed

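Per the labels and the study's methods, the authors isolated RNA from sorted cells (RNeasy) or livers (TRIzol), sequenced it on an Illumina instrument, aligned reads to GRCm38 (mm10) with HISAT2 and counted them with featureCounts. Versions, annotation, strand setting and the handling of reads that map to several genes are not given in the sources used here. The deposited tables hold raw counts per gene. Fth1 has 2 entries, 1 of them at 0 in every library. The members and the pathway lists were chosen with earlier results of these data known.

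Each comparison was fitted on its own 6 libraries with edgeR 4.0.16 in R 4.3.3 (filterByExpr with a minimum count of 10, TMM scaling, quasi-likelihood test, Benjamini-Hochberg adjustment over all genes tested). Differences between fold changes were tested as interactions over 12 libraries. Intervals of 95% used the SE and edgeR's degrees of freedom. DEGs had an adjusted p under 0.05 and a log2 fold change above 1 in size. Alternatives were DESeq2 1.42.0, other scalings, no filter, a replicate block, Xist as a factor, adjusted p alone and leaving out each library. Named genes were the members, the deleted genes and up to 6 called genes per list and comparison with the largest fold changes at a mean log2 CPM of at least 1, plus genes needed to describe them. Scripts were tested on simulated data. Depth ranged from 60911527 to 110879155 counts, and precision was set by 3 replicates per group. Levels per kilobase used all GENCODE vM21 exon bases of a gene over its transcripts, so ranks between genes depend on these lengths.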

Additional observations from a re-analysis of the deposited data

Results flagged for a closer look

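Fold changes that differed between 2 comparisons by edgeR's interaction test (adjusted p under 0.05, difference above 1 on the log2 scale) are given with their SE for the 10 genes and for the 2 genes of each pathway list with the largest called difference at a mean log2 CPM of at least 1. HSC-KO minus Smad4 cKO in macrophages was -4.58 for Id1 (SE 0.79, adjusted p = 0.011) and -5.74 for Id3 (0.56, 0.00047), both targets of BMP signals, and -5.17 for Marco (0.90, 0.013) and -4.06 for Vsig4 (0.66, 0.0085), both receptors of Kupffer cells. Each of the 4 was lower in both mutants, and further below its control in HSC-KO. The 9 endothelial markers summed to 563 to 820.5 CPM in control and 75.6 to 157 CPM in HSC-KO macrophages. In Smad4FF and Smad4 cKO macrophages they summed to 889 to 2526 and 1749 to 2200 CPM. The part of EC RNA in these differences was not tested. In Smad4 cKO the Marco call was lost in 4 of 6 leave-one-out fits (log2 fold change -1.40 to -1.35, adjusted p 0.059 to 0.082). Of the same lists Slc48a1 (-1.24), Smad6 (-3.41) and the deleted gene Smad4 (1.44) were also called.

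Macrophages minus ECs, both from HSC-KO mice, gave negative differences for Id1 (-7.72, SE 0.82, adjusted p = 0.00014), Atoh8 (-8.22, 1.95, 0.021) and Nr1h3 (-6.38, 0.71, 0.00019). Differences were positive for the transporters Slc11a1 (2.71, 0.70, 0.024), Slc39a8 (5.46, 0.69, 0.00041), Slc25a37 (2.82, 0.34, 0.00035) and Slc46a1 (4.74, 0.77, 0.0020). They were also positive for Stab1 (6.57, 0.47, 1.2e-05) and Spic (2.78, 0.55, 0.0062), the latter a transcription factor of iron-recycling macrophages. Spic was not called in macrophages or in ECs alone, and the part of Kupffer cell RNA in its EC values was not tested. The Atoh8 call was lost in 1 of 18 alternatives (adjusted p = 0.053), and Slc11a1 had 0 to 50 reads per EC library, so its difference is not read as an EC response. Also called, with negative differences, were Id3, Il6, Smad5, Slc22a17, Slc48a1, Abcg2, Txnrd1 and Epas1, and, with positive ones, Bmp2, Acvr1, Socs3, Cebpa, Steap2, Cp, Slc25a28, Ppox and Bach1. Il6 in ECs and Steap2 in macrophages had reads in 1 of 6 libraries.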

How the results depend on the processing

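Of 38 fold changes of the 10 genes, 460 alternative values held the sign and the call, 9 lost the call, 20 gained it and 33 changed sign. For 70 fold changes of the other named genes, 831 held and 66 lost the call, and no sign changed. In the macrophage HSC-KO comparison 2 genes were called, 3 (with Tfrc) with DESeq2 or Xist as a factor, 4 by adjusted p alone and 2 to 3 leaving out 1 library. In the Smad4 cKO comparison 0 were called, 1 (Tfrc) with DESeq2, DESeq2 size factors or the replicate block, 4 by adjusted p alone and 0 to 1 leaving out 1 library. In ECs 1 was called, 2 with DESeq2 or Xist as a factor, 3 by adjusted p alone and 1 to 3 leaving out 1 library. In livers 1 was called, 2 with DESeq2 or library size alone and 0 to 2 leaving out 1 library. For HSC-KO minus Smad4 cKO 0 were called, and 0 to 1 leaving out 1 library. For macrophages minus ECs 1 was called, 2 with DESeq2 or the replicate block, 3 with library size alone and 0 to 2 leaving out 1 library. Where DESeq2, a scaling or the block changed a call, the cause was not tested, and leaving out a library left fewer samples.

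Sign changes were of small values. In livers they were Tfr2 at 0.002295 and Hfe at 0.001098 with DESeq2, Tfr2 at 0.005257 and Hfe at 0.003786 with its size factors, Tmprss6 at -0.07319 with library size alone, and, with Xist as a factor, Hamp at 0.1103, Hamp2 at 0.2777, Tfrc at -0.03768 and Hfe at 0.08939. For HSC-KO minus Smad4 cKO they were Fth1 at -0.03352 with library size alone and -0.005266 without a filter, and Tfrc at -0.1424 with Xist as a factor. For macrophages minus ECs Hfe was at -0.00901 with library size alone. Leaving out 1 library gave ranges in livers of -0.6561 to 0.1109 for Hamp, -0.8406 to 0.2783 for Hamp2 (-1.053 with the replicate block), -0.04294 to 0.04748 for Tfr2, -0.03737 to 0.3869 for Tfrc and -0.1261 to 0.08986 for Hfe, and for HSC-KO minus Smad4 cKO of -0.199 to 0.5089 for Tfrc, -0.03788 to 0.2368 for Fth1 and -0.04161 to 0.2117 for Hfe.

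Over all genes, livers had 425 DEGs, 814 with DESeq2 and 271 with the replicate block, and HSC-KO minus Smad4 cKO had 489, 1122 and 302. Library size alone moved the median log2 fold change in ECs from 0.00 to 0.30, and the share of higher among DEGs from 56.1 to 72.5% in ECs, 50.9 to 62.4% in Smad4 cKO macrophages and 51.4 to 37.7% for macrophages minus ECs. Replicate numbers did not pair the libraries: correlations of same-numbered deviations ran from -0.284 to 0.25. Xist as a factor could not be fitted for Smad4 cKO. Depth was not limiting for the 10 genes in the cells that express them, whereas Hamp, Hamp2, Tfr2 and Tmprss6 in sorted cells and Slc11a1 in ECs rest on few reads.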
